A study of Saccharomyces cerevisiae with 5 samples.

Results

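ARS316 is a late and inefficient replication origin on chromosome III of budding yeast. Its nucleosome free region (NFR) and the chromatin on the + side of the NFR, up to the end of the excised chromatin ring, are described here. They are the 700 positions that follow the first 540 positions of the ring, were set by their place in the ring, with earlier results of these data known, and are counted below in bp from their start. These are 700 of the 4597 positions in all 4 rings of the series, 23 of 152 windows of 30 bp, and 9 of 51 regions. Data of 5 libraries were used. The ring came from strain Y0069 in wildtype, Y0106 (isw2delta::ura3) in isw2Δ and Y0129 (ies6delta::his) in ies6Δ. These strains were MATa with ura3, leu2, his3 and met15 markers and bar1::kanMX4, had recombination sites and LexA sites placed around ARS316, and carried LexA-TAP under the TEF2 promoter and recombinase R under GAL1-10. Cells grown in YPR were held in G1 with alpha-factor while galactose induced the excision. A library pools the rings of 4 strains, 1 for each origin, so the ARS316 data of a genotype come from 1 strain. For wildtype there was 1 library, labelled as replicate 2, and hence no replicate check. The smallest p that an exact permutation of 2 mutant libraries and 1 wildtype library allows is 1 in 3.

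Origins of budding yeast are bound by the origin recognition complex at an NFR, and positioned nucleosomes border this region on either side. Chromatin remodeling enzymes determine where these nucleosomes lie. Isw2 is the ATPase of an ISWI-type complex that slides nucleosomes towards NFRs, and Ies6 is a subunit that the INO80 complex needs for its Arp5 module and its remodeling activity. In methylation accessibility sequencing (MATAC-seq) of purified rings, EcoGII methylates adenines, M.CviPI cytosines in GpC and M.SssI cytosines in CpG wherever no protein covers them, and Nanopore reads then show which bases of a molecule were marked. High methylation therefore marks accessible DNA such as an NFR or a linker. At bases that these enzymes can mark, low methylation marks DNA covered by a nucleosome or by another protein complex.

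The tables hold no base letters, and the chromosomal position of the ring was not used here. Every ring position was called on 1 strand only, 658 positions on forward reads (A or C) and 582 on reverse reads (G or T of the ring strand). This pattern placed 4 of the 10 primers that the study's primer list assigns to ARS316, without a mismatch. They give 89 bases of known sequence in 4 stretches, in the minus edge of the NFR, the NFR, the second protected stretch and the distal stretch. The stretch in the NFR (145 to 167 bp) and the one next to the inner shoulder (458 to 480 bp) are shown in each genotype, because their mean levels were nearly the same in mutants and wildtype. In the NFR the bases that carried this level differed, and next to the inner shoulder most of them were shared. Sequences run 5′ to 3′ along the ring strand, and capitals mark bases with a group mean of at least 2 on the normalized scale explained below.

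NFR stretch in wildtype: agaaaaTgTaGGCaacGAAgaac
NFR stretch in isw2Δ: AgAAAATgTaggcAAcgAAgAAc
NFR stretch in ies6Δ: AgAAAATgTaggcAAcGAAgAAc
Stretch next to the inner shoulder in wildtype: tttcAaaacTTTcAGcccAAtca
Stretch next to the inner shoulder in isw2Δ: tTTcAAaacTTTcAgcccAAtca
Stretch next to the inner shoulder in ies6Δ: tttcAAaacTTTcAgcccAAtca

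In the NFR stretch, 8 bases of wildtype are in capitals, 4 of them A or T and 4 of them C or G. In isw2Δ there are 13, all A or T, and in ies6Δ 14, of which 13 are A or T. The mean level of these 23 bp was 2.43 (wildtype), 2.53 (isw2Δ) and 2.57 (ies6Δ). Next to the inner shoulder, the mean level of 23 bp was 1.62 (wildtype), 1.67 (isw2Δ) and 1.55 (ies6Δ), with 1 capital C or G in wildtype and none in the mutants. The sequence of the minus edge (8 to 28 bp) was cggcattatcgtacacaacct, with mean levels of 0.858, 0.971 and 0.975 in this order, and that of the distal stretch (640 to 661 bp) was acacaccattacgtcttcacag, with 0.749, 0.920 and 0.807.

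The wildtype library had 819 forward and 780 reverse reads of ARS316, and either isw2Δ library had 780 of both. The ies6Δ libraries were shallower, with 83 forward and 93 reverse reads in replicate 1 and 274 reverse reads, and slightly more forward reads, in replicate 2. Forward and reverse means per position were added and then divided by the mean over a spike-in of reconstituted nucleosomes, the nucleosomal array, which yields the normalized methylation level. The array itself was methylated at 6.96% of positions with wildtype, at 12.2 and 11.8% with isw2Δ (here and below in the order of replicates 1 and 2) and at 10.2 and 9.02% with ies6Δ. The 95% intervals of levels, methylated percentages, ratios and shares of molecules below cover sampling of molecules only, at a fixed array mean, and molecules are not replicates. Intervals of log2 changes instead use the standard error between libraries from the fit described below.

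The libraries differed in which bases were methylated, even in the naked plasmid, a spike-in free of nucleosomes. At 43 plasmid bases that are C or G in a CpG or GpC, 30.4% of the wildtype molecules were methylated. The mutants had far fewer such calls, with 5.66 and 7.07% for isw2Δ and 8.61 and 4.96% for ies6Δ. At 95 plasmid bases that are A or T the order was turned, with 35.1% for wildtype, 61.1 and 62.9% for isw2Δ, and 59.2 and 60.6% for ies6Δ. The 4 mutant libraries shared 1 pattern of base use and the wildtype library had another, on DNA without nucleosomes that is the same in each library. Only 52 reverse reads of the plasmid were in the wildtype library, which widened its intervals (32.5 to 37.7% for A or T), still far from those of the mutants.

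ARS316 chromatin had the same pattern. At its 14 known bases that are C or G in a CpG or GpC, methylation was 13.7% for wildtype, 4.51 and 6.80% for isw2Δ, and 5.23 and 5.45% for ies6Δ. At the 52 known A or T bases it was 11.1% for wildtype, 30.2 and 27.7% for isw2Δ, and 22.8 and 21.6% for ies6Δ. After normalization, wildtype exceeded every mutant library at 31 of the 35 C or G bases with a known context and fell below all 4 at none of them. It fell below all 4 at 38 of the 52 A or T bases and exceeded all 4 at none. Most bases of the ring are not known here, so regions and windows mix both kinds of base. The part of this base use in their differences from wildtype was not tested, and with 1 wildtype library it cannot be told apart from the genotype.

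**Figure D1:**
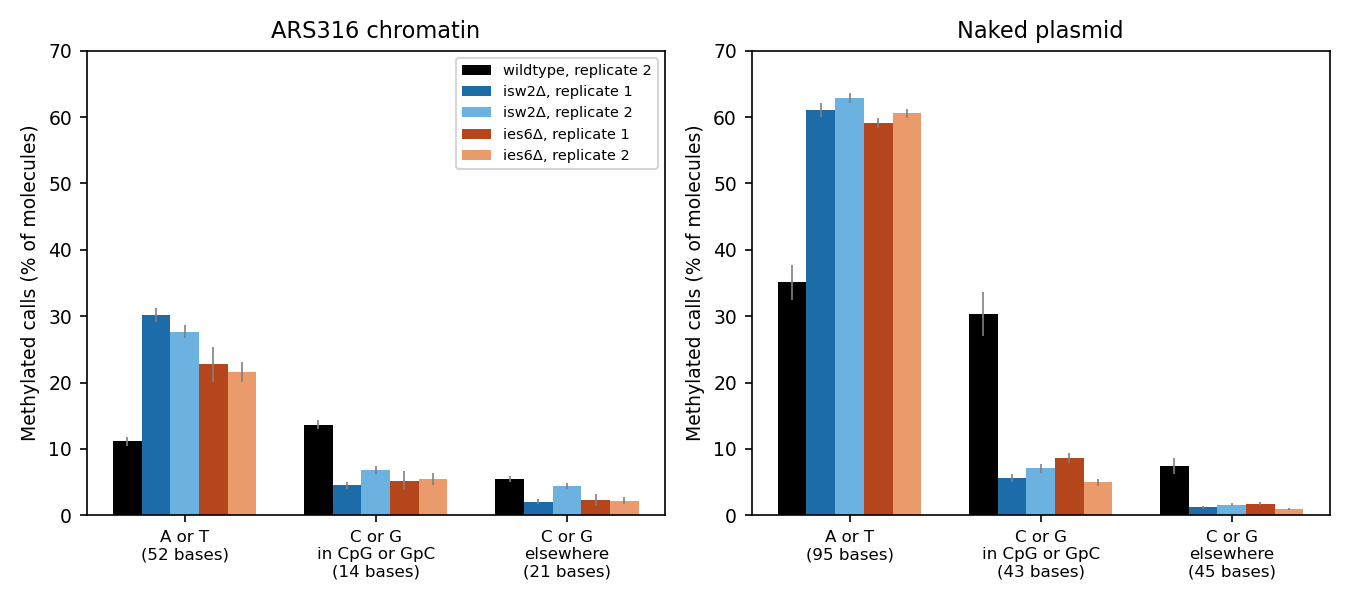
Methylated calls (% of molecules) at bases of known sequence, by base class, in ARS316 chromatin (left) and in the naked plasmid (right); bars are single libraries and error bars the 95% interval over molecules. Wildtype is below the 4 mutant libraries at A or T and above them at C or G in CpG or GpC, in chromatin and in the naked plasmid.

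The wildtype profile had 2 stretches of high methylation level, the NFR and the inner shoulder, with 300 bp of lower levels between them. The inner shoulder (480 to 510 bp) had a normalized level of 2.07 (95% interval 1.95 to 2.18) and the NFR (60 to 180 bp) one of 1.99 (1.90 to 2.08), and these intervals overlapped. Next came the downstream opening (510 to 600 bp) with 1.18, the linker (360 to 390 bp) with 1.14, the + side of the NFR (180 to 300 bp) with 1.10 and the second protected stretch (390 to 480 bp) with 1.08, which did not differ beyond their intervals. The lowest levels were those of the distal stretch (600 to 700 bp) with 0.928, the first protected stretch (300 to 360 bp) with 0.849 and the minus edge of the NFR (0 to 60 bp) with 0.830. Borders and names of the regions follow the drawn profile of the study and are not nucleosome calls. Regions can differ in their bases, most of which are not known here. In the wildtype naked plasmid methylation was 35.1% at A or T, 30.4% at C or G in CpG or GpC, and 7.48% at C or G elsewhere. The order of regions within a library thus mixes base content with accessibility, and the part of either was not tested.

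**Figure D2:**
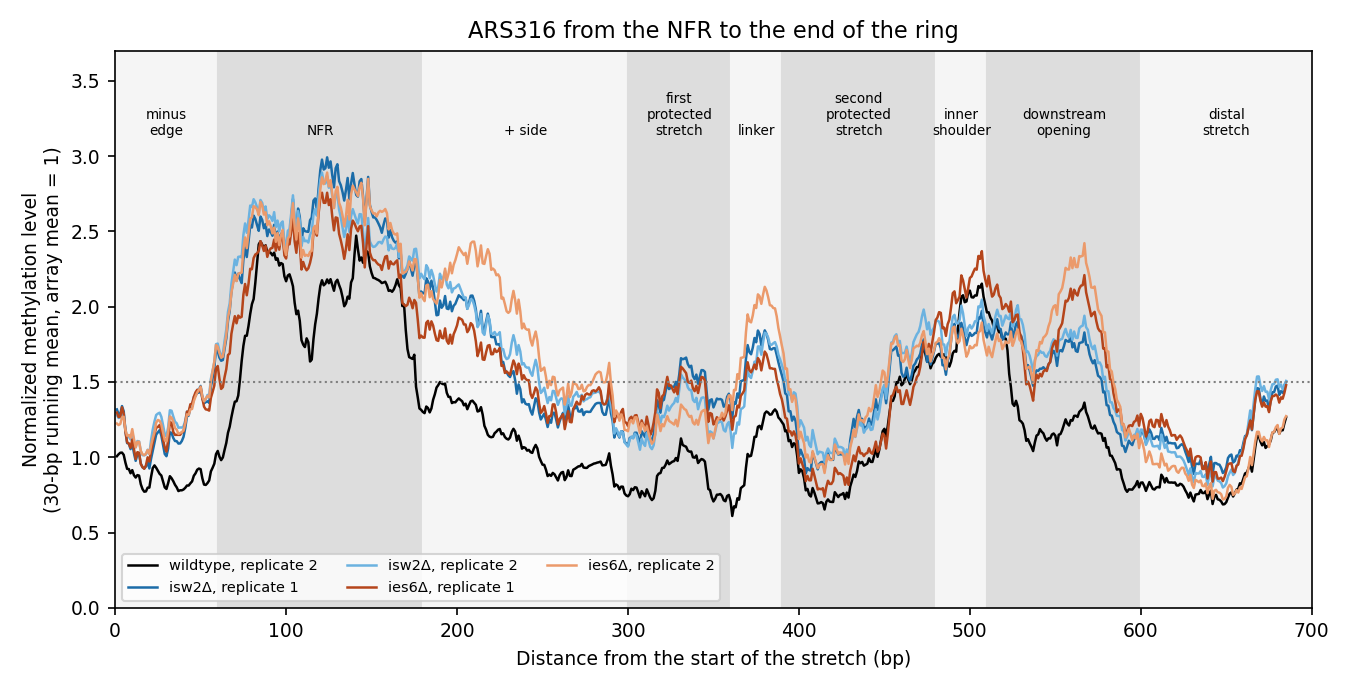
Normalized methylation level (30-bp running mean, nucleosomal array mean = 1) against the distance in bp from the start of the described stretch for the 5 libraries, with the 9 regions shaded and a dotted line at 1.5, the level that defines the NFR edges. Wildtype stays at or above 1.5 up to 175 bp, the 4 mutant libraries up to 234 to 252 bp.

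The NFR of both mutants reached further to the + side. Its edges were set where the 30-bp running mean around its peak fell under 1.5. In wildtype these were 73 and 175 bp, a width of 103 bp, with the peak level of 2.47 at 141 bp. In isw2Δ the edges were 57 and 234 bp (width 178 bp) for replicate 1 and 56 and 247 bp (192 bp) for replicate 2. In ies6Δ they were 64 and 242 bp (179 bp) and 56 and 252 bp (197 bp). The mean width was 185 ± 9.90 bp for isw2Δ and 188 ± 12.7 bp for ies6Δ (SD, n = 2). The right edge thus lay 65.5 bp (isw2Δ) and 72 bp (ies6Δ) beyond that of wildtype, against an SD between replicates of 9.19 and 7.07 bp. The size of this shift depended on how the edge was set, and at mid-height of the peaks it was 26 bp (isw2Δ) and 37.5 bp (ies6Δ). At a level of 2 the right edge lay at 169 bp in wildtype, 187 and 205 bp in isw2Δ, and 173 and 228 bp in ies6Δ. The edges were not tested, and an exact permutation of these libraries allows no p below 1 in 3.

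Inside the NFR, isw2Δ rose and the change of ies6Δ did not pass the adjusted threshold. Against 1.99 for wildtype, the levels were 2.52 and 2.50 for isw2Δ and 2.30 and 2.50 for ies6Δ, so that all 4 mutant libraries lay above wildtype. This is a log2 change of 0.33 for isw2Δ (adjusted p = 0.0171) and 0.27 for ies6Δ (adjusted p = 0.0749), each with a standard error of 0.123, which holds for all regions below. The p-values are from limma, fitted to 51 regions and tiles of the 4 rings, and they measure the pooled spread between mutant replicates, not that of wildtype. The isw2Δ call was lost without either of its libraries (0.33 with an adjusted p = 0.0974 without replicate 1, and 0.34 with an adjusted p = 0.0824 without replicate 2). The ies6Δ change passed without ies6Δ replicate 1, the shallowest library (adjusted p = 0.0331). The NFR of wildtype had 2 summits, at 85 bp (2.43) and 141 bp (2.47), with a dip between them at 114 bp to 1.64, 0.672 of the lower summit. The deepest dip of a mutant library was 0.863 of its lower summit (ies6Δ replicate 2) and the shallowest 0.899 (isw2Δ replicate 1), so that the dip was deeper in wildtype than in all 4. The dip was picked after the profiles were seen, its bases are not known here, and it was given no test. The minus edge of the NFR, low in wildtype with 0.830, had 1.15 and 1.19 for isw2Δ and 1.16 and 1.18 for ies6Δ. It rose by 0.50 and 0.49 on the log2 scale (limma, adjusted p = 0.000722 and 0.000681).

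The + side of the NFR rose in both mutants. Wildtype had a level of 1.10 there (95% interval 1.02 to 1.18), isw2Δ of 1.57 and 1.67, and ies6Δ of 1.53 and 1.85. The mutants did not overlap with wildtype, and ies6Δ varied more between its replicates. The log2 changes were 0.55 for isw2Δ (limma, adjusted p = 0.000158) and 0.61 for ies6Δ (adjusted p = 4.23e-05). The ratio of the + side to the NFR of the same library, in which no spike-in enters but base use does, was 0.554 for wildtype (95% interval 0.521 to 0.588). It was higher in all 4 mutant libraries, with 0.622 and 0.670 for isw2Δ and 0.664 and 0.739 for ies6Δ, and among them only the interval of ies6Δ replicate 1 (0.580 to 0.760) overlapped that of wildtype.

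The first protected stretch, which lies where a nucleosome next to the + side would be, and the linker behind it rose as well. The first protected stretch had 0.849 in wildtype, 1.36 and 1.24 in isw2Δ, but 1.37 and 1.21 in ies6Δ, with log2 changes of 0.61 and 0.60 (limma, adjusted p = 5.03e-05 and 4.23e-05). The linker had 1.14 for wildtype, 1.76 and 1.62 for isw2Δ, and 1.58 and 1.99 for ies6Δ, with log2 changes of 0.58 and 0.65 (limma, adjusted p = 9.31e-05 and 2.26e-05). The ies6Δ replicates spanned both isw2Δ libraries in the linker. In each library the protected stretch stayed below the linker, at 0.748 of its level in wildtype, 0.771 and 0.761 for isw2Δ, and 0.865 and 0.608 for ies6Δ. The highest running mean of the linker lay at 386 bp in wildtype and at 380 bp in each mutant library, closer together than the 30 bp over which it was taken.

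Further downstream, neighbouring regions differed in how far they changed. In the second protected stretch, wildtype had 1.08, isw2Δ 1.249 and 1.344, and ies6Δ 1.10 and 1.299, and neither log2 change (0.26 and 0.14) passed (limma, adjusted p = 0.0667 and 0.381). Without either ies6Δ library, the same change of isw2Δ passed (adjusted p = 0.0291). In the inner shoulder, wildtype had 2.07, isw2Δ 1.89 and 2.01, and ies6Δ 2.21 and 1.85. This was the only one of the 9 regions where wildtype lay among the mutant libraries. Its log2 changes of -0.08 (95% interval -0.33 to 0.16) and -0.03 (-0.27 to 0.21) did not pass (limma, adjusted p = 0.541 and 0.843).

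The downstream opening, directly behind the inner shoulder, rose in both mutants. Wildtype had 1.18 (95% interval 1.10 to 1.26), isw2Δ 1.58 and 1.67, and ies6Δ 1.74 and 1.79, and all mutant values were higher than that of wildtype. The log2 changes were 0.46 for isw2Δ (limma, adjusted p = 0.00164) and 0.59 for ies6Δ (adjusted p = 5.49e-05). The opening had 0.570 of the level of the inner shoulder in wildtype (95% interval 0.535 to 0.607), 0.835 and 0.831 for isw2Δ, and 0.790 and 0.967 for ies6Δ, with none of the mutant intervals overlapping that of wildtype. The highest running mean downstream of 450 bp was found at 507 bp in 4 libraries, wildtype included, and at 567 bp, within the opening, in ies6Δ replicate 2. At the end of the ring, the distal stretch had 0.928 for wildtype, 1.17 and 1.12 for isw2Δ, and 1.17 and 0.979 for ies6Δ. It rose by 0.30 in isw2Δ (limma, adjusted p = 0.0312), while 0.20 in ies6Δ did not pass (adjusted p = 0.173). Without isw2Δ replicate 1 or 2 the change of isw2Δ was 0.27 or 0.34, with a larger standard error of 0.161, and did not pass (adjusted p = 0.16 and 0.0833), whereas that of ies6Δ was 0.33 and passed without ies6Δ replicate 2 (adjusted p = 0.0198).

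**Figure D3:**
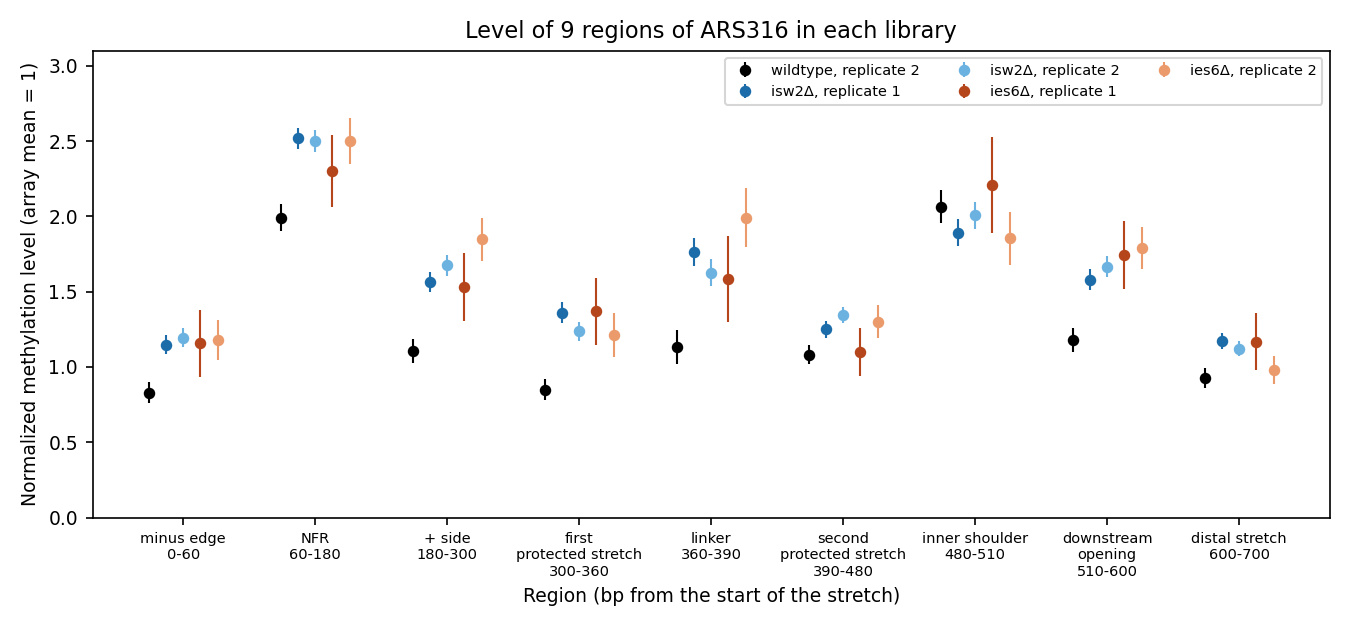
Normalized methylation level (nucleosomal array mean = 1) of the 9 regions in each library; points are single libraries and bars the 95% interval over molecules. All 4 mutant libraries lie above wildtype except in the inner shoulder, where wildtype at 2.07 lies between them.

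Altogether 7 of the 9 regions rose in isw2Δ, where 49.0% of all 51 regions and tiles rose, and 5 rose in ies6Δ, where 33.3% did. Of the 23 windows, 17 rose in isw2Δ, against 46.1% of the 152 windows of all rings, and 12 rose in ies6Δ, against 30.9%. No region and no window of these 700 positions was called as lower. Such calls were rare in all rings. In either direction, 50.7% (isw2Δ) and 34.9% (ies6Δ) of all 152 windows were called, little more than rose. Over the 23 windows the median log2 change was 0.40 for isw2Δ and 0.36 for ies6Δ, while over all 152 windows it was 0.30 and 0.21. Without isw2Δ replicate 2, 10 windows were called for isw2Δ. Both sets of values use the same wildtype library.

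The most changed windows lay at the left border of the NFR, in its + side, in the first protected stretch and in the downstream opening. For isw2Δ, window 30-60 went from 0.840 to 1.34 and 1.35, a log2 change of 0.68 (limma, standard error 0.148 as for each window, adjusted p = 8.18e-05). Windows 300-330 (0.62), 330-360 (0.61) and 210-240 (0.59) came next. For ies6Δ, window 540-570 went from 1.22 to 1.96 and 2.18, a log2 change of 0.77 (limma, adjusted p = 8.62e-06), and 210-240 (0.71), 300-330 (0.68) and 30-60 (0.67) followed. The adjacent windows 450-480 (0.08 and -0.02) and 480-510 (-0.08 and -0.03) were the least changed in both mutants. Window 150-180 at the right end of the wildtype NFR changed by 0.15 and 0.13 and was not called either (limma, adjusted p = 0.377 and 0.524). Windows 150-180 and 450-480 contain most of the NFR stretch and of the stretch next to the inner shoulder printed above.

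**Figure D4:**
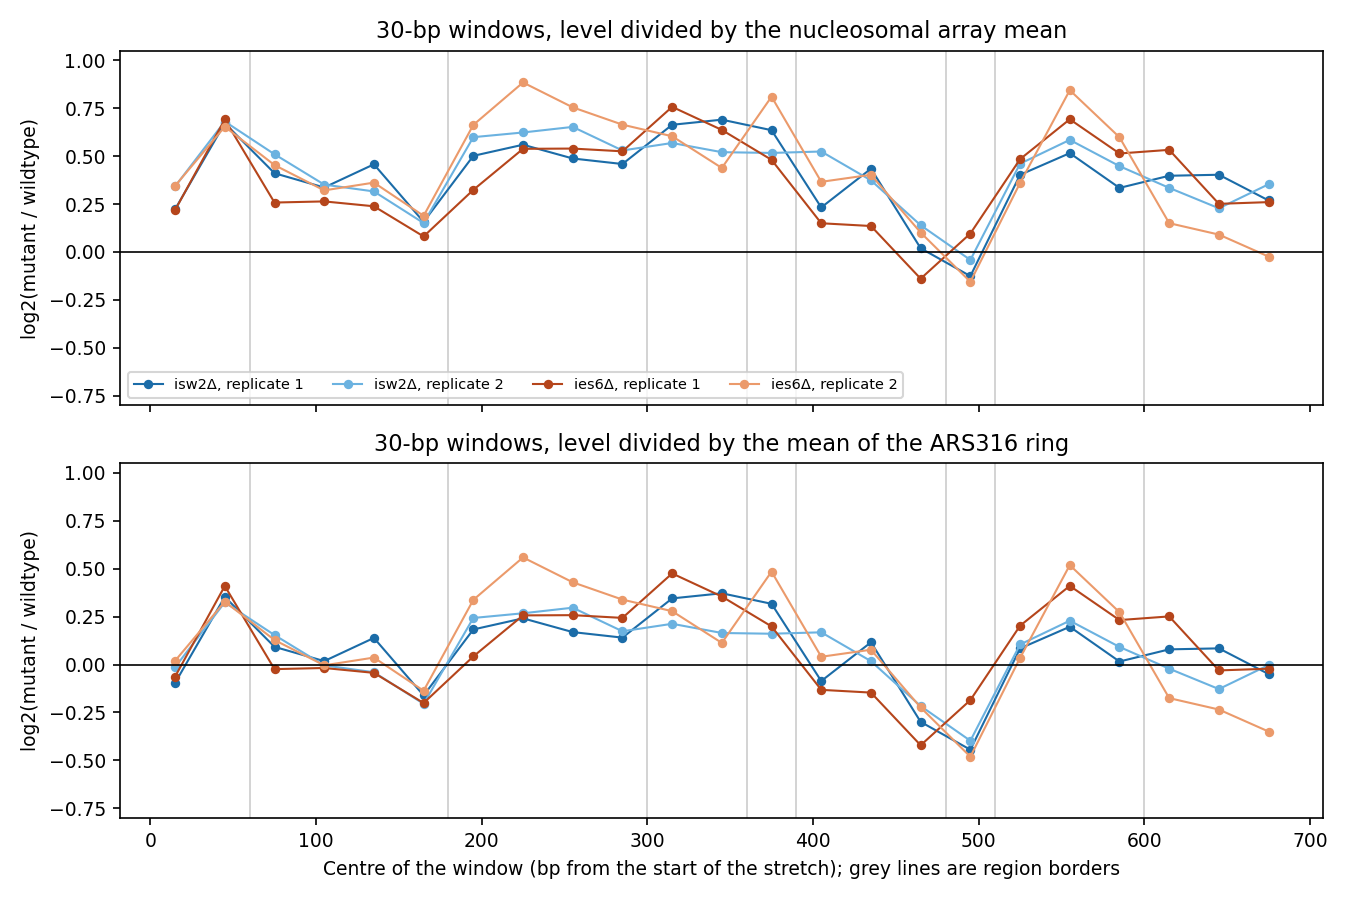
log2 ratio of each mutant library to wildtype in 23 windows of 30 bp, with levels divided by the nucleosomal array mean (top) and by the mean of the ARS316 ring (bottom). As group means, windows 450-480 and 480-510 are lowest on both scales, and on the ring scale the ratios spread around 0.

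The number of calls depended on the reference. The whole ARS316 ring, relative to the array, was at 1.17 for wildtype, 1.46 and 1.49 for isw2Δ, and 1.42 and 1.46 for ies6Δ, so that the ring as a whole was higher in the mutants. Relative to the mean of the ring, the median change of the 23 windows was 0.07 for isw2Δ and 0.05 for ies6Δ, and limma called 0 windows for isw2Δ (2 at an unadjusted p under 0.05) and 1 for ies6Δ (9 unadjusted). Of all 152 windows it called 14.5 and 16.4% on that scale, in either direction. The NFR changed by -0.0041 and -0.036 on that scale, the + side by 0.22 and 0.30, and the downstream opening by 0.13 and 0.28, none of which passed. The inner shoulder fell by 0.42 in isw2Δ (limma, adjusted p = 0.0160), and its -0.33 in ies6Δ did not pass (adjusted p = 0.0597). With the naked plasmid as reference, 21 windows were called for isw2Δ and 0 for ies6Δ (14 unadjusted), with medians of 0.74 and 0.41. Of all 152 windows, 66.4 and 0% were called with this reference. Without a reference, 23 windows were called for isw2Δ and 22 for ies6Δ, with medians of 1.19 and 0.82, and of all 152 windows 96.1 and 69.1% were called. With at most 80 reads per strand, limma called 0 windows and 0 regions of either mutant against wildtype (7 windows at an unadjusted p under 0.05 for isw2Δ and 6 for ies6Δ), and 0 of all 152 windows.

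Known bases allow a comparison within 1 kind of base. At the 14 A or T bases of the NFR stretch the normalized level was 2.05 for wildtype, 3.89 and 3.45 for isw2Δ, and 3.42 and 3.91 for ies6Δ. At its 8 C or G bases with a known context it was 3.39 for wildtype, 0.622 and 1.07 for isw2Δ, and 0.970 and 0.975 for ies6Δ. Relative to the array, these bases moved in opposite directions within 23 bp, and their mean hardly moved. In the naked plasmid, too, A or T and C or G differed from wildtype in opposite directions. Next to the inner shoulder, 15 A or T bases had 1.96 for wildtype, 2.34 and 2.51 for isw2Δ, and 2.07 and 2.41 for ies6Δ. At A or T alone, wildtype was lowest in each of the 4 stretches.

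The array mean also contains both kinds of base. A or T bases were therefore set against A or T bases of the naked plasmid of the same library, a comparison chosen after the difference in base use had been seen. The NFR stretch reached 40.7% of the plasmid in wildtype, 77.9 and 64.8% for isw2Δ, and 59.1 and 58.3% for ies6Δ. The minus edge stretch reached 19.1% in wildtype, 32.6 and 30.7% for isw2Δ, and 27.7 and 24.5% for ies6Δ. In both stretches all 4 mutant libraries exceeded wildtype, and isw2Δ exceeded ies6Δ. Next to the inner shoulder, wildtype with 38.9% lay between isw2Δ (46.9 and 47.1%) and ies6Δ (35.7 and 35.9%). In the distal stretch, wildtype had 24.1%, isw2Δ 34.7 and 28.0%, and ies6Δ 27.7 and 19.1%. On this scale ies6Δ was thus above wildtype in the NFR stretch, close to it next to the inner shoulder, and on either side of it in the distal stretch. Next to the inner shoulder ies6Δ methylation before this division was 21.1% (95% interval 17.4 to 24.8%) and 21.7% (19.5 to 24.0%). Its slightly lower share there is therefore not a clear difference from wildtype. Over all 52 bases the share of the plasmid was 31.8% for wildtype, 49.4 and 44.0% for isw2Δ, and 38.5 and 35.7% for ies6Δ. No intervals were computed for these shares. These values were not tested.

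Position by position, wildtype was below all 4 mutant libraries at 428 of the 700 positions, above all 4 at 145 and neither at 127. These classes were made from the values compared and are a description only. The 145 positions gave 0.220 of the wildtype mean level of 1.23 and 0.0464 to 0.0815 of the mutant means of 1.57 to 1.65. They weighed most in the 2 stretches of high level in wildtype, with 0.597 of the level of 2.07 in the inner shoulder (7 of 30 positions) and 0.622 of 1.99 in the NFR (27 of 120 positions). In the linker 1 of 30 positions was of this kind, and it gave 0.00351 of 1.14.

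With the array as reference, the mutants were not told apart on this side of ARS316. In the direct contrast of isw2Δ with ies6Δ, limma called 0 of the 9 regions and 0 of the 23 windows, and 0 of either had an unadjusted p under 0.05, while 5.88% of all regions and 5.26% of all windows were called. These libraries have a like base use, which wildtype does not share. The differences of regions, with a standard error of 0.101, ran from -0.12 in the downstream opening (95% interval -0.32 to 0.07) to 0.12 in the second protected stretch (-0.08 to 0.32). For the NFR the interval was -0.13 to 0.26 and for the + side -0.25 to 0.14, and differences within them were not detectable with these libraries. Between replicates, the windows differed by a median of 0.095 on the log2 scale for isw2Δ and 0.195 for ies6Δ. Without a reference, 5 of the 9 regions were higher in isw2Δ than in ies6Δ (70.6% of all 51 regions and tiles).

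Single molecules show how many rings had an accessible NFR. A region was counted as open in a molecule when its level, over the positions called on that strand and relative to the array on that strand, was at least 1.5. Intervals are 95% Wilson intervals. On forward reads, which call A or C, the NFR was open in 38.1% of the wildtype molecules (312 of 819, 34.8 to 41.5%). It was open in more molecules of each mutant library, 73.6 and 66.2% for isw2Δ and 63.9 and 61.5% for ies6Δ. On reverse reads, which call G or T, it was open in 64.9% of the wildtype molecules (61.5 to 68.1%), 75.0 and 78.5% for isw2Δ, and 64.5 and 63.9% for ies6Δ. There ies6Δ did not lie above wildtype, and the strands of wildtype differed by more than their intervals.

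The + side and the downstream opening gave the same order on both strands. The + side was open in 25.9% of wildtype molecules on forward reads (212 of 819) and 24.2% on reverse reads (189 of 780, 21.4 to 27.4%). On forward reads it was open in 42.4 and 47.7% for isw2Δ and 38.6 and 45.5% for ies6Δ, and on reverse reads in 43.2 and 42.6% for isw2Δ and 41.9 and 43.4% for ies6Δ. All 4 mutant libraries were higher on both strands, and only the forward interval of ies6Δ replicate 1 (28.8 to 49.3%) overlapped that of wildtype. No call at all on the + side was found in 32.2% (forward) and 31.3% (reverse) of wildtype molecules and in 7.69 to 13.5% of those of the mutant libraries. Unlike the open shares, this share is not set against the array, which itself was methylated least with wildtype (6.96% against 9.02 to 12.2%). A lower methylation of the library leaves more molecules without a call, and its part in this difference was not tested. The downstream opening was open in 23.6% of wildtype molecules on forward reads, 35.9 and 35.8% for isw2Δ, and 38.6 and 42.9% for ies6Δ. The inner shoulder, open in 47.4% of wildtype molecules on forward reads, was open in 44.5 to 53.0% for the mutants, on either side of wildtype. On reverse reads it was open in 52.8% for wildtype (49.3 to 56.3%), 51.2 and 54.5% for isw2Δ, and 47.3 and 38.7% for ies6Δ, of which only the interval of ies6Δ replicate 2 (33.1 to 44.6%) did not overlap that of wildtype.

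**Figure D5:**
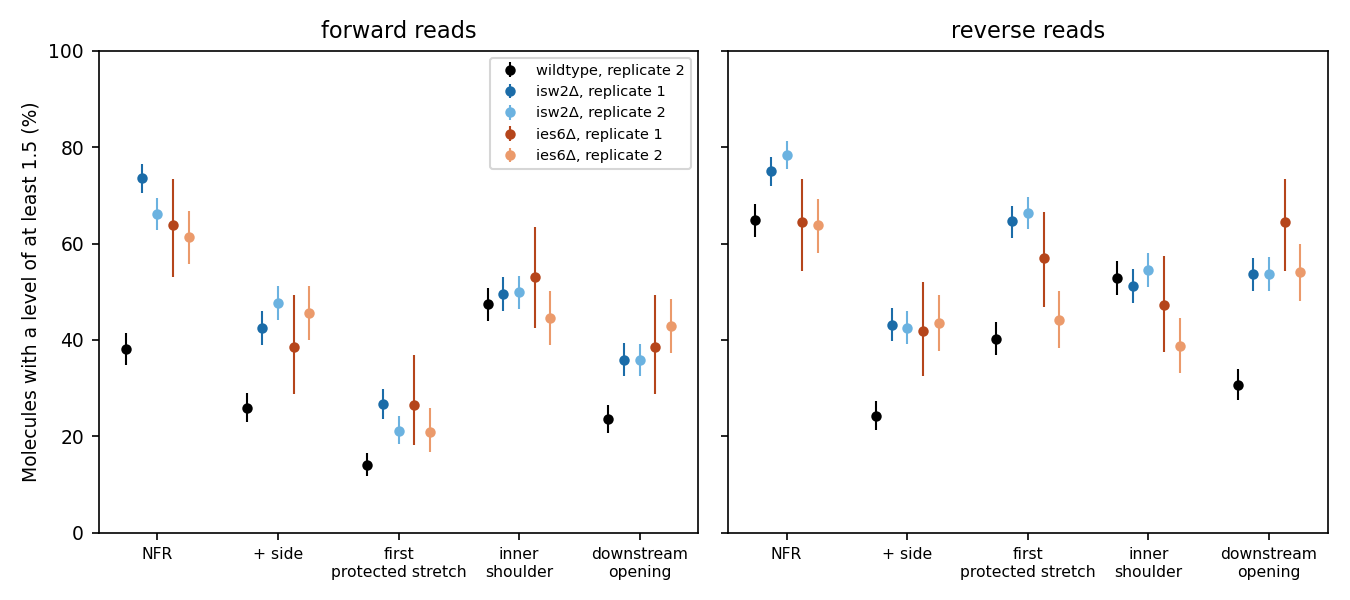
Share of molecules (%) with a level of at least 1.5 in 5 regions of ARS316, on forward reads (left) and reverse reads (right); points are single libraries and bars 95% Wilson intervals over molecules. The + side and the downstream opening are above wildtype in all 4 mutant libraries on both strands, the NFR on forward reads only.

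An open NFR and an open + side tended to occur on the same molecules. Among forward reads of wildtype, the + side was open in 56.7% of the 312 molecules with an open NFR (51.2 to 62.1%) and in 6.90% of the 507 others (5.01 to 9.45%). Among mutant molecules with an open NFR this share was 52.3 and 63.2% for isw2Δ and 50.9 and 55.7% for ies6Δ, with intervals that overlapped that of wildtype. Among those without an open NFR it was 15.05 and 17.4% for isw2Δ and 16.7 and 29.3% for ies6Δ, and only the interval of ies6Δ replicate 1 (7.34 to 33.6%, 30 molecules) overlapped that of wildtype. On reverse reads the order was another, since the share among molecules with an open NFR was 29.8% for wildtype (26.0 to 34.0%), below 47.4 and 48.5% for isw2Δ and 51.7 and 50.3% for ies6Δ. Across forward molecules, the levels of the NFR and the + side had a Spearman correlation of 0.597 in wildtype (819 molecules) and of 0.477 to 0.617 in the mutant libraries. On these reads of wildtype the NFR correlated less with the first 540 positions of the ring (0.429) and with the downstream opening (0.283) of the same molecules. On reverse reads of wildtype it was 0.368 with the + side and 0.340 with the first 540 positions. There the order was turned in isw2Δ replicate 1 (0.355 against 0.374) and ies6Δ replicate 1 (0.394 against 0.401), and kept in replicate 2 of both mutants. Levels of a molecule share its total methylation, and the correlations are a description.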

How the data were processed

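The authors called Nanopore reads with Megalodon and set their own thresholds on its m6A and CpG scores. They deposited 60 tables, 1 per library, locus and strand, whose values are fractions of 0 or 1 for a base of a read, not normalized. The submitters' processing notes name build R64. The tables gave 43459 reads, and 1 incomplete line was left out.

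Levels of regions and windows were tested on the log2 scale, with no pseudocount, by limma over all 5 libraries. This leaves 2 residual degrees of freedom for each region or window. In the main fits limma estimated infinite prior degrees of freedom, so that all windows shared the same pooled variance. The same held for all regions and tiles. The p-values of these fits therefore rest on this pooling, not on 2 degrees of freedom. The pooling treats neighbouring windows or tiles of the same 5 libraries as independent, which was not tested. P-values were adjusted (Benjamini-Hochberg) over 152 windows or over 51 regions and 90-bp tiles, with a threshold of 0.05. Labels do not say whether replicates came from separate cultures, so p-values measure only the spread between these libraries. All regions are reported and, for each mutant, the 4 windows with the largest change among those called and changed alike in both libraries. Members, regions and lists were chosen with earlier results of these data known. Of 106 primers searched, those with an exact match and at least 2 mismatches at any other place were used, 4 in ARS316 and 6 in the naked plasmid.

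Alternatives were the naked plasmid, the mean of the ring or no reference, single strands, at most 80 reads per strand, positions methylated in at least 5% of molecules, windows moved by 15 bp, a limma trend, the replicate block, leaving out single mutant libraries, weights by reads, and other rules for the edges. The limma fit was tested on simulated data. Versions were Python 3.11.15, NumPy 2.4.6, SciPy 1.17.1, Matplotlib 3.10.9, R 4.3.3 and limma 3.58.1.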

Additional observations from a re-analysis of the deposited data

How the results depend on the processing

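Of 423 alternative values over the reported results, 313 kept their direction and their side of the threshold (or their size, for counts and edges), 60 lost a call, 17 gained one, 16 turned their direction and 17 counts or edges moved. A limma trend, or leaving out a library of the other mutant, cannot alter a log2 change against wildtype, so the direction of such values was fixed in advance. All alternatives use the same wildtype library. Windows called for isw2Δ numbered 17, and 10 to 19 with 1 mutant library left out (10 without isw2Δ replicate 2). For ies6Δ they numbered 12, and 11 in each such case. With the mean of the ring, 0 (isw2Δ) and 1 (ies6Δ) were called, on forward reads 5 and 5, and with at most 80 reads per strand 0 and 0 by limma (7 and 6 at an unadjusted p under 0.05, and 0 of the 152 windows of all rings). Of all 152 windows, 14.5 and 16.4% were called with the mean of the ring and 25.7 and 21.7% on forward reads. With the naked plasmid 21 were called for isw2Δ (median change 0.74, 66.4% of all 152 called) and 0 for ies6Δ (14 unadjusted, 0 of all 152), whose median change was 0.41 against 0.36 with the array. With no reference 22 were called for ies6Δ (69.1% of all 152). Windows called between the mutants remained 0 throughout. By limma, 10 of 23 had an unadjusted p under 0.05 with the naked plasmid (median change 0.296, isw2Δ against ies6Δ). With no reference there were 12 (median 0.345). For isw2Δ the NFR changed by 0.19 with at most 80 reads, 0.35 on forward reads, 0.29 on reverse reads and -0.0041 with the mean of the ring, none past the threshold, and by 0.33 to 0.34 with 1 library left out. With at most 80 reads, on forward reads and with the mean of the ring, the + side changed by 0.50, 0.40 and 0.22 and the downstream opening by 0.24, 0.40 and 0.13, none past the threshold. For ies6Δ the NFR passed with no reference (0.73), at positions methylated in at least 5% of molecules (0.30) and without ies6Δ replicate 1 (0.33, in a range of 0.21 to 0.33 over the libraries left out), and was -0.036 with the mean of the ring. The + side changed by 0.60 with at most 80 reads, 0.47 on forward reads and 0.30 with the mean of the ring, and the downstream opening by 0.41 with at most 80 reads and 0.28 with the mean of the ring, none past the threshold.

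Changes that were not called and turned were those of the second protected stretch (-0.0022 for isw2Δ and -0.073 for ies6Δ on forward reads, -0.078 and -0.16 with the mean of the ring), the inner shoulder (0.25 and 0.029 with the naked plasmid, 0.71 and 0.44 with no reference, 0.021 and 0.075 on reverse reads, and 0.096 for ies6Δ without replicate 2) and, for ies6Δ, the distal stretch (-0.067 on forward reads and -0.10 with the mean of the ring). The called change of the distal stretch in isw2Δ turned to -0.034 with the mean of the ring. The right edge of the NFR lay 56 bp beyond wildtype in isw2Δ at a lower level, 27 bp at a level of 2, 26 bp at mid-height, 56 bp with a running mean of 50 bp and 55.5 bp with at most 80 reads, and 58, 31.5 and 37.5 bp in ies6Δ at the first 3 of these. With 1 library left out the range was 59 to 72 bp for isw2Δ and 67 to 77 bp for ies6Δ. At a level of 2 the ies6Δ replicates lay far apart, with right edges at 173 and 228 bp against 169 bp in wildtype. The cause of these changes was not tested.

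With the replicate block, limma called 15 windows for isw2Δ and 11 for ies6Δ (40.8 and 24.3% of all 152). Of the regions, the second protected stretch of isw2Δ passed (0.35) and its distal stretch no longer did (0.22), and no other call changed. No label pairs the replicate numbers, and the differences between replicates 1 and 2 of the mutants correlated at 0.113 over 152 windows and at 0.336 over the 23 windows described. Weighting libraries by their ARS316 reads, chosen after seeing the data, gave 20 and 11 windows (56.6 and 35.5% of all 152). Calls at A or T alone and motifs were not run, since no genome was used. Depth limits ies6Δ, and its single library limits wildtype.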
